A study of Rattus norvegicus with 31 samples.

Results

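The joint response of the rat liver to thiacloprid (THI) and clothianidin (CTD) was compared with the response predicted by adding the dose-weighted responses to each compound alone. All 19904 genes with a summed count of at least 2 over the 31 libraries were taken, out of 26312 genes in the count table. The livers came from female Wistar rats gavaged daily for 28 days, and RNA-Seq was done on the high dose groups of the study. The comparison used 19 rats: 8 controls given the carboxymethyl-cellulose vehicle alone, 4 given THI at 108 mg/kg body weight per day, 3 given CTD at 288 mg/kg, and 4 given both compounds at 54 mg/kg THI and 134 mg/kg CTD. The compounds were given in the same vehicle. The CTD group holds 3 rats, and the study's methods record a loss of 1 or more animals of that group killed in moribund condition. Each library is 1 rat, so the tests measure the spread between animals. Imazalil (IMZ) was the third compound of the study. It was given alone at 93 mg/kg, with THI (54 mg/kg THI and 46 mg/kg IMZ) and with CTD (46 mg/kg IMZ and 135 mg/kg CTD), to 4 rats each. These 3 groups were part of the same fit and are among the other rats with which the CTD rats are compared below. A further contrast uses the IMZ and IMZ + CTD groups.

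THI and CTD are neonicotinoids, insecticides made to bind the nicotinic acetylcholine receptors of insect neurons. In the rodent liver many such foreign compounds activate the nuclear receptors CAR and PXR, which switch on oxidases of the Cyp2b and Cyp3a families together with conjugating enzymes and export pumps. Activators of CAR are also known to drive hepatocytes into division. Where compounds act alike and responses are proportional to dose, a mixture of reduced doses is predicted to give the sum of the reduced single responses.

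For each gene the prediction was 0.5 times the log2-fold change of THI plus 0.47 times that of CTD, each against control, and the departure was the measured log2-fold change of THI + CTD minus this sum. A positive departure means that the mixture lay above the sum. The weights leave the controls a weight of 0.03 in the departure, so the measured contrast set the mixture livers almost entirely against a midpoint between THI and CTD livers. It therefore depends on the 3 CTD rats as much as on the 4 THI rats.

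Departures were few, and most were in genes that CTD alone had shifted while the mixture stayed near the control level. By the quasi-likelihood test of edgeR with Benjamini-Hochberg adjustment over all genes, 57 genes passed an adjusted p of 0.05, which is 0.286% of the genes tested. Of these, 42 lay above the sum (0.211% of genes) and 15 below it (0.0754%). The median departure of all genes was -0.01 on the log2 scale, with quartiles of -0.16 and 0.17. An unadjusted p under 0.05 was found for 1922 genes (9.66%). The Wald test of DESeq2 called 172 genes, 55 of them among the 57. The edgeR count was 30 without THI + CTD replicate 1, 34 without THI + CTD replicate 3 and 38 without CTD replicate 3.

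Among the 57 genes, 49 were differentially expressed (DEGs) in CTD livers, none in THI livers and 11 in mixture livers. Against a background of 2518 CTD DEGs (12.7% of genes), 108 THI DEGs (0.543%) and 873 DEGs of the mixture (4.39%), 49 of the departing genes were DEGs of CTD. The CTD response is a term of the departure and comes from the same rats, so these counts, and those on CTD rats that follow, describe the chosen genes and are no independent evidence. Of the 42 genes above the sum, 41 were lower in CTD livers than in controls, and of the 15 below the sum 14 were higher. For 45 genes CTD alone passed the threshold and neither THI nor the mixture did. A further 7 passed in the mixture only, and 4 passed in CTD and in the mixture with opposite signs. Of all 2518 CTD DEGs, 49 (1.95%) departed from the sum. For the others no departure was detected, which does not show that they followed the sum.

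**Figure D1:**
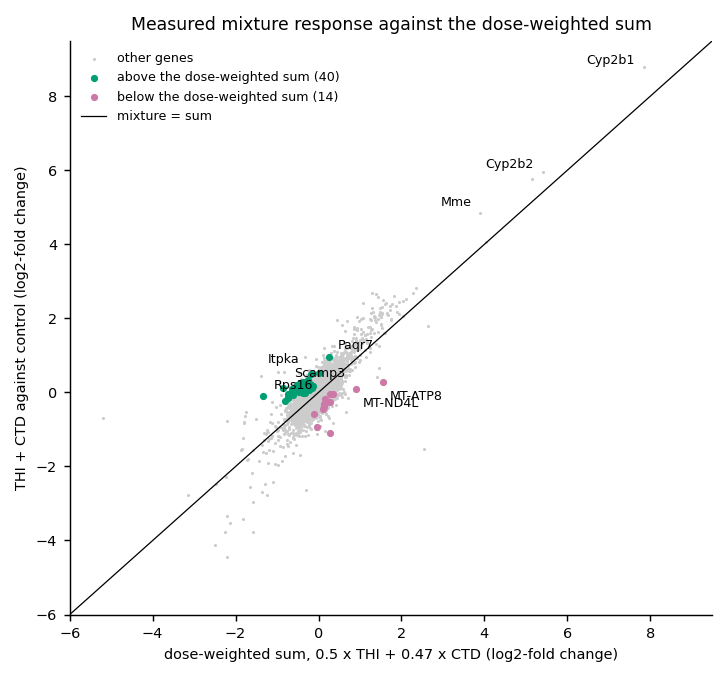
Measured log2-fold change of THI + CTD against control (vertical axis) against the dose-weighted sum of the single compounds (horizontal axis), 1 point per gene with an average log2 CPM above 0. Green points lie above the sum and purple points below it at an adjusted p under 0.05, and most of the green points sit at a negative sum with a mixture response near 0, while the strongly induced Cyp2b1, Cyp2b2 and Mme lie above the line, by 0.92, 0.54 and 0.95, without passing the test.

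The CTD livers stood apart at these genes from every other group of the study. In 44 of the 57 genes all 3 CTD rats lay on one side of all 28 other rats, below them in 33 genes and above them in 11, where 2.41% of all genes tested showed such a separation. The other 28 rats include the 4 rats given IMZ with 135 mg/kg CTD. For 54 of the 57 genes the mixture differed from CTD alone (2.67% of all genes) and for 1 gene from THI alone (0.106%). Both differences are parts of the contrast that chose the genes, as are the values of the CTD rats, and nothing is read from the excess over all genes. In the study's summary of reads, CTD replicates 2 and 3 had the lowest shares of uniquely mapped reads of all libraries. All 3 CTD libraries had lower shares than the libraries of THI + CTD. The part of this in the departures was not tested. The labels give no batch, and a difference of the CTD libraries other than the compound cannot be told apart from the treatment.

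Scamp3, which encodes a secretory carrier membrane protein of the trans-Golgi and endosomes, had the smallest p. Its level in CPM, the counts scaled to the TMM-adjusted library size, ran from 35.4 to 44.7 in the controls with a median of 39.3. The THI rats had 33.1, 35.9, 38.3 and 42 CPM and the CTD rats 11.2, 11.9 and 12.6 CPM. The mixture rats had 38.3, 42.5, 45.3 and 44.4 CPM. The CTD rats were thus far below all others, while the mixture rats lay within or just above the range of the controls. The log2-fold change was -1.73 ± 0.09 (SE, n = 3) for CTD and 0.11 ± 0.07 (SE, n = 4) for the mixture, where the sum predicted -0.85. The departure was 0.96 ± 0.08 (SE), with a 95% interval of 0.81 to 1.12 and an edgeR adjusted p of 1.42e-09, and all 4 mixture rats lay above the predicted level. Without any 1 rat the departure ranged from 0.93 to 1.01.

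The 250 bases before the RefSeq start of Scamp3 are shown because this gene departed with the smallest p. The window is taken from the assembly GRCr8, which is not the build the reads were mapped to, and lies on the plus strand at chr2:176880715-176880964. The 2 matches to the E-box CACGTG, which reads the same on both strands, are in capitals.
Scamp3: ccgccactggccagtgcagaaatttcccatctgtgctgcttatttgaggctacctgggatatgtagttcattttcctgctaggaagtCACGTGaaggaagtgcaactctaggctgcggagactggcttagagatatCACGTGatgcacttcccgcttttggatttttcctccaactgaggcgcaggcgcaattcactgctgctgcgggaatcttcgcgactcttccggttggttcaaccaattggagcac
A RefSeq window was matched by symbol for 36 of the 57 genes. The E-box was found in 4 of these windows (11.1%), against 5.79% of 27457 windows of the same length. The GC box GGGCGG was found in 19 (52.8%) against 32.4%, CCAAT in 13 (36.1%) against 34.3% and the short E2F motif (TTNNCGC, each N being C or G) in 9 (25%) against 7.97%, both strands being searched. The E2F motif was added to those given after its counts were seen. The 27457 windows were not limited to genes tested or expressed in these livers, so the 2 sets of genes are unlike. These are counts of letters and show no binding.

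Rps16, a protein of the small ribosomal subunit, had the largest positive departure among genes with an average log2 CPM above 0. The controls ran from 54.2 to 94.4 CPM with a median of 66.8, and the THI rats had 50.6, 54.9, 69.2 and 69.1 CPM. The CTD rats had 20, 7.16 and 6.86 CPM and the mixture rats 69.9, 65.3, 53 and 77.1 CPM. Only the CTD rats fell outside the range of the controls by a wide margin, and 1 of the 3 was less extreme than the others. The departure was 1.25 ± 0.18 (SE; 95% interval 0.88 to 1.63, edgeR adjusted p = 0.000353), and the CTD response was -2.64. Rps16 was the 1 of 82 ribosomal protein gene IDs that passed. The median departure of the list was -0.06, with 19 of 82 above 0, where 47% of all genes lay above 0. Ribosomal protein genes have many processed pseudogenes, so that the division of reads among copies is uncertain.

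**Figure D2:**
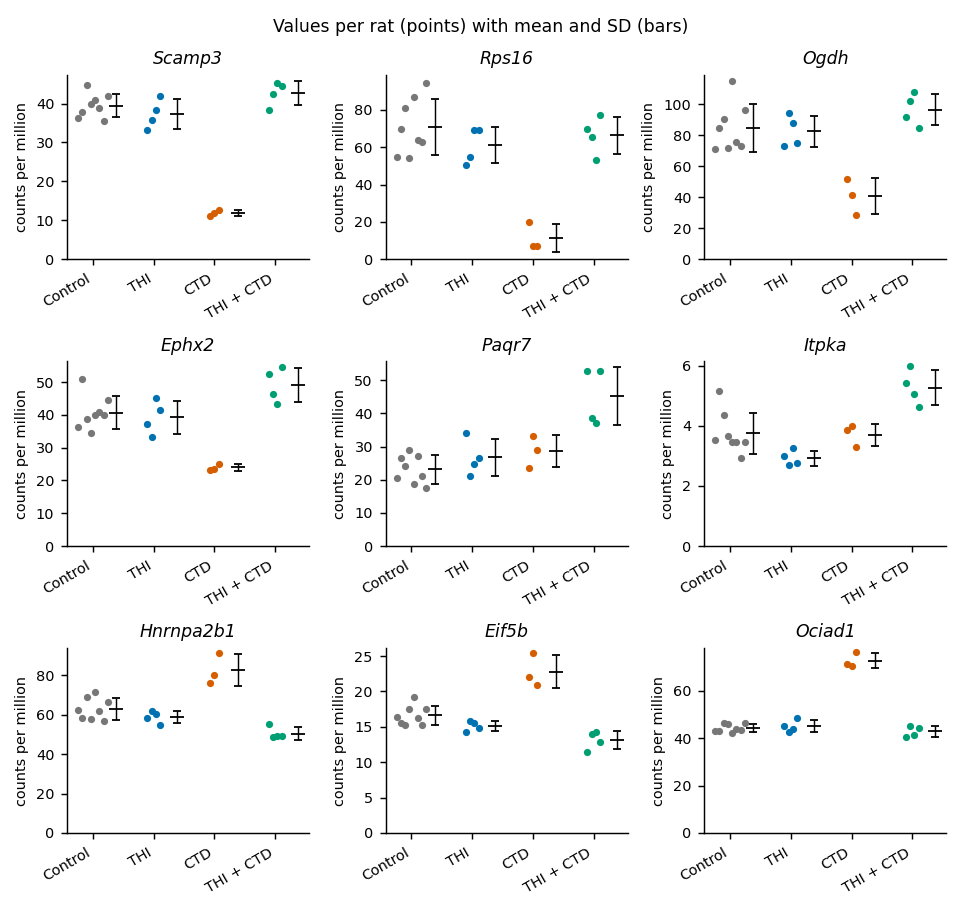
CPM of 9 genes in each rat (points) of the control, THI, CTD and THI + CTD groups, with the group mean and SD at the side and each axis starting at 0. The CTD rats stand apart in Scamp3, Rps16, Ogdh, Ephx2, Hnrnpa2b1, Eif5b and Ociad1. The mixture rats stand apart in Paqr7 and are the highest group in Itpka and the lowest in Hnrnpa2b1 and Eif5b.

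Of the genes above the sum, Ogdh and Mrpl40 encode mitochondrial proteins. Ogdh encodes the E1 subunit of the 2-oxoglutarate dehydrogenase of the citric acid cycle. The controls ran from 71 to 115 CPM (median 80.2), the THI rats had 73, 94.5, 87.7 and 75.3 CPM, the CTD rats 51.6, 41.8 and 28.4 CPM and the mixture rats 91.6, 102, 108 and 85.1 CPM. The CTD rats were all below the controls, and the mixture rats overlapped with them. The departure was 0.71 ± 0.12 (SE, edgeR adjusted p = 0.0018). Mrpl40, of the mitochondrial ribosome, departed by 0.69 ± 0.12 with 2.58 to 3.32 CPM in CTD rats and 6.94 to 7.32 CPM in the mixture. Idh1, the NADP-dependent isocitrate dehydrogenase of cytosol and peroxisomes, departed by 0.47 ± 0.09, with 223, 262 and 246 CPM in CTD rats against 454 to 513 in the mixture and 432 to 520 in controls. The nuclear list of oxidative phosphorylation had none of 59 members past the threshold and a median departure of 0.01.

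Ephx2, Ptdss2 and Slc10a7 also lay above the sum, while no member of the lipid lists passed. Ephx2 encodes the soluble epoxide hydrolase, which opens epoxides of fatty acids. Its controls ran from 34.5 to 50.9 CPM (median 40), the THI rats had 37.2, 33.2, 45 and 41.5 CPM, the CTD rats 23.3, 23.6 and 25.1 CPM and the mixture rats 52.3, 46.4, 43.3 and 54.7 CPM. The CTD rats lay below every control, and 2 of the mixture rats lay above every control. Ephx2 departed by 0.66 ± 0.10 (SE, edgeR adjusted p = 0.000353). Ptdss2, a phosphatidylserine synthase, departed by 0.59 ± 0.09 and had 12.7 to 17.2 CPM in CTD rats against 27.8 to 35.6 in the mixture. Slc10a7, a member of the bile acid carrier family by sequence, departed by 0.61 ± 0.10 with 1.45 to 1.94 CPM in CTD rats and 3.9 to 4.75 in the mixture.

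Further genes that passed, grouped here without a list or a test, were Atp6v0c of the proton pump of lysosomes (departure 0.56), Nsf, which takes SNARE complexes apart (0.37), the syntaxin-binding protein Stxbp2 (0.28), the endosomal Tollip (0.32) and the SARA protein Zfyve9 (0.37). In each of them CTD livers were lower than controls, with log2-fold changes of -1.24 for Atp6v0c and -0.41 to -0.67 for the others, and the mixture response lay between -0.06 and 0.12. Serping1, the C1 inhibitor that hepatocytes secrete, departed by 0.59 ± 0.08 at a CTD response of -1.45, and the protease Htra1 by 0.56 ± 0.10 at -1.35. None of the 32 genes of the complement and coagulation list passed, and their median departure was -0.06.

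Further genes above the sum act in signalling or on RNA, without a list for either. Crkl, an adaptor of tyrosine kinase signalling, departed by 0.70 ± 0.10 (SE, edgeR adjusted p = 0.000246), with 3.05 to 4.76 CPM in CTD rats, 7.56 to 10 in controls and 9.08 to 11.5 in the mixture. Elp5, a subunit of the Elongator complex that modifies transfer RNAs, departed by 0.73 ± 0.11, with 2.68 to 3.9 CPM in CTD rats and 7.92 to 11.3 in the mixture. The highest mixture value of Elp5, 11.3 CPM, stood apart from the other 3 rats, and without that rat the departure was 0.58. Pik3cb, a catalytic subunit of PI3-kinase (0.45), Csnk2b, the regulatory subunit of casein kinase 2 (0.33), and the kinase Sik2 (0.37) also passed, each lower in CTD livers and with mixture responses of 0.01 to 0.19.

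The remaining 16 genes above the sum departed by 0.29 to 0.59. They included Dpagt1, the first enzyme of N-glycan assembly (0.40), the Mediator subunit Med25 (0.47), Actr2 of the Arp2/3 complex that branches actin (0.30) and the AMP deaminase Ampd2 (0.47), all with mean levels in CTD livers below control. Abtb1 (0.43) was lower than control in CTD livers, with -0.51, and higher in the mixture, with 0.23, and passed in both.

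In 4 genes above the sum the mixture itself passed against control, and Paqr7, Itpka and Camsap3 among them passed in the mixture only. Paqr7, a membrane progesterone receptor, ran from 17.6 to 28.9 CPM in controls (median 22.6). The THI rats had 34.2, 21.2, 24.9 and 26.6 CPM and the CTD rats 23.6, 33.2 and 29.1, while the mixture rats had 52.7, 38.5, 37 and 52.7 CPM. All 4 mixture rats lay above all 15 rats of the control, THI and CTD groups, while the rats given IMZ alone reached 48.1 CPM. The mixture response was 0.97 ± 0.15 (SE, n = 4, edgeR adjusted p = 0.000198), the sum predicted 0.25, and the departure was 0.72 ± 0.16 (adjusted p = 0.0291). Over leaving out 1 rat at a time the departure stayed between 0.63 and 0.80, but it missed the threshold in 6 of 19 fits, with an adjusted p of up to 0.143 without THI + CTD replicate 1.

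Itpka encodes an inositol trisphosphate 3-kinase. The controls ran from 2.93 to 5.16 CPM (median 3.5), the THI rats had 2.99, 2.7, 3.25 and 2.76 CPM, the CTD rats 3.85, 3.98 and 3.29 CPM and the mixture rats 5.42, 5.98, 5.05 and 4.63 CPM. The mixture rats were above every THI and CTD rat and overlapped with the highest control. The departure was 0.68 ± 0.13 (edgeR adjusted p = 0.0117), and this was the gene that also differed between the mixture and THI alone (adjusted p = 0.028), a contrast that called no gene by edgeR without THI replicate 3, with 1422 at an unadjusted p under 0.05. Camsap3, which binds the minus ends of microtubules, had 15, 13, 12.6 and 15.4 CPM in the mixture, above the 8.11 to 11.6 CPM of the controls, the 8.88 to 12.3 CPM of THI and the 8.01 to 10.2 CPM of CTD. It departed by 0.51 ± 0.10 with an adjusted p of 0.0111.

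Over the 57 genes the mixture mean lay outside the range spanned by the means of both compounds in 56. The choice of the genes by this contrast favours this count and the next, and its share over all genes was not taken. The mixture lay above THI by only 0.003 for Idh1 and 0.02 for Atp6v0c. By the edgeR test it differed from THI alone in 1 of the 57. All 4 mixture rats lay on one side of all 15 rats of the control, THI and CTD groups in 6 genes, where 0.141% of all genes did so. In each of the 57 genes all 4 mixture rats lay on the same side of the predicted level (32.1% of all genes), which the choice of the genes by this contrast largely fixes.

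**Figure D3:**
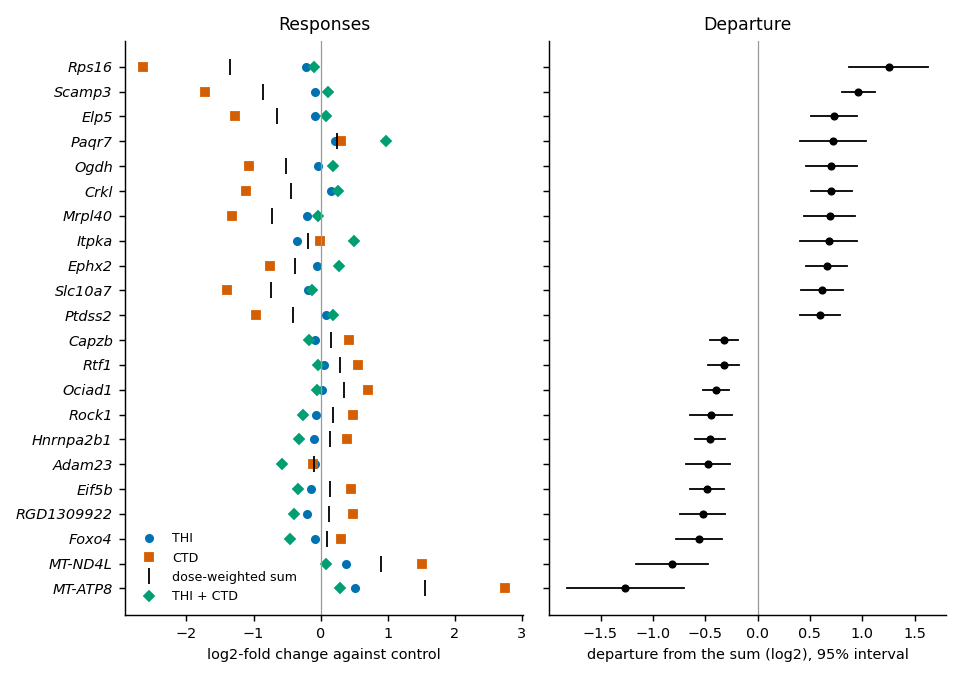
Left, log2-fold changes against control of THI (circles), CTD (squares), THI + CTD (diamonds) and the dose-weighted sum (bars) for 11 named genes above and 11 below the sum. Right, the departure with its 95% interval. CTD lies farthest from 0 in most rows, and THI + CTD lies farthest from 0 in Paqr7, Itpka, Foxo4 and Adam23.

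Below the sum, 2 genes of the mitochondrial genome had the largest named departures. MT-ATP8 encodes a small subunit of ATP synthase, and its controls ran from 0.44 to 0.802 CPM (median 0.718). The THI rats had 1.02, 1.14, 0.992 and 0.571 CPM, the CTD rats 2.73, 4.5 and 6.03 CPM and the mixture rats 0.699, 1.16, 0.617 and 0.709 CPM. The CTD rats were the highest and the mixture rats overlapped with the controls and THI. The departure was -1.27 ± 0.27 (edgeR adjusted p = 0.0291), and it missed the threshold in 7 of the 19 fits that left out 1 rat, with an adjusted p of up to 0.148. MT-ND4L, of complex I, departed by -0.82 ± 0.17 (adjusted p = 0.0156), with 7.26 to 8.38 CPM in CTD rats, 2.23 to 3.36 in controls and 2.53 to 3.57 in the mixture. Both genes overlap a neighbour on the mitochondrial genome, and the assignment of reads between overlapping genes is not given in the sources used here.

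Of the 13 protein genes of the mitochondrial genome, these 2 passed and 12 lay below 0, with a median departure of -0.35. In CTD livers 11 of the 13 were up-regulated (6.62% of all genes were), with a median log2-fold change of 0.91. These genes took 1.53% to 1.99% of the counts of CTD libraries, 1.33% to 1.57% of those of the mixture, 1.21% to 1.45% of THI and 0.882% to 1.51% of controls. A gene copy named 5S_rRNA in the count table, for the small RNA of the large ribosomal subunit, also departed downward (-2.30 ± 0.50, edgeR adjusted p = 0.0287). It had 2.78, 2.07 and 3.88 CPM in CTD rats and 0.241, 0.0446, 0.192 and 0.278 CPM in the mixture, with 0.353 to 0.771 in controls. Copies of this RNA are nearly identical, so reads can be divided among them. Their part in the other departures was not tested.

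Hnrnpa2b1, Eif5b, RGD1309922 and Rtf1 were nuclear genes below the sum. Hnrnpa2b1, a heterogeneous nuclear ribonucleoprotein of RNA processing, ran from 56.5 to 71.3 CPM in controls (median 62) and had 58.3, 61.6, 60.5 and 54.5 CPM in THI rats. The CTD rats had 75.9, 79.9 and 91.4 CPM, above every control, and the mixture rats 55, 48.6, 49.1 and 48.9 CPM, below every control. CTD and the mixture were thus on opposite sides, with 0.39 (edgeR adjusted p = 0.000392) and -0.32 (0.00491), and the departure was -0.45 ± 0.07 (adjusted p = 0.000554). Eif5b, which joins the ribosomal subunits at initiation, showed the same split. It had 22, 25.4 and 20.9 CPM in CTD rats and 11.5, 14, 14.3 and 12.8 CPM in the mixture, with 15.3 to 19.2 in controls, and departed by -0.48 ± 0.08. RGD1309922, a gene with no given name, was the third of this kind with -0.53 ± 0.11. Rtf1, a transcription elongation factor, departed by -0.33 ± 0.07 through higher CTD values of 18.8 to 21.1 CPM against 12.5 to 13.8 in the mixture.

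The other genes below the sum had varied roles. Foxo4, a transcription factor restrained by insulin signalling, had 15.1, 13.4 and 11 CPM in CTD rats, 9.82 to 11.8 in controls and 7.83, 7.67, 7.41 and 8.12 in the mixture, below all controls. It departed by -0.56 ± 0.11 (edgeR adjusted p = 0.00912). Adam23, an integrin-binding member of its family without protease activity, was moved in the mixture only: 10.6, 9.74, 9.69 and 9.44 CPM lay below the 12.5 to 17.2 CPM of controls and below all THI and CTD rats, and the departure was -0.47 ± 0.11. It missed the threshold in 11 of the 19 fits without 1 rat. The kinase Rock1 (-0.45 ± 0.10) and the actin capping subunit Capzb (-0.32 ± 0.06), both of the actin skeleton, and the mitochondrial and endosomal Ociad1 (-0.40 ± 0.06) were higher in CTD livers, and their mixture responses of -0.26, -0.17 and -0.05 did not pass. For Ociad1 the CTD rats had 71.5, 70.3 and 76.2 CPM and all other rats of the comparison 40.6 to 48.6.

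Of the 57 genes, 3 had an average log2 CPM at or below 0, the 5S_rRNA copy among them. The other two are given by their counts alone. The unnamed ENSRNOG00000047277 had 0 counts in all THI and CTD rats, 0 to 4 in controls and 2, 5, 10 and 5 in the mixture. Hsbp1l1 had 1, 0 and 0 counts in CTD rats, 1 to 6 in THI rats, 1 to 21 in controls and 12, 8, 10 and 12 in the mixture. Their fitted departures depend on the handling of zeros and carry no size here. Among the genes without a symbol at higher levels, ENSRNOG00000049703 (-1.38) and ENSRNOG00000046768 (-0.91) lay below the sum, and both were lower than control in the mixture only, and 1 further ID departed by -0.53.

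Among the listed genes of foreign compound metabolism no departure passed. The 10 genes that the study singled out, a list picked on these samples and so no independent evidence, had departures from -0.11 to 0.95, with 7 of 10 above 0. Cyp2b2, the phenobarbital-inducible oxidase, ran from 1.51 to 12.1 CPM in controls (median 4.7), with 293, 323, 467 and 273 CPM in THI rats, 117, 421 and 212 CPM in CTD rats and 272, 525, 408 and 310 CPM in the mixture. All treated rats were above all controls and the 3 treatments overlapped. The sum predicted 5.42 and the mixture gave 5.96, a departure of 0.54 with a 95% interval of -0.32 to 1.40. The interval spans 0 and also holds departures above 1.

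Mme, the membrane metalloendopeptidase neprilysin, came nearest of the 10. The controls ran from 0.271 to 0.83 CPM (median 0.533), the THI rats had 6.98, 7.94, 4.38 and 10.9 CPM, the CTD rats 6.89, 20.6 and 6.37 CPM and the mixture rats 16, 14.9, 17.9 and 16.5 CPM. The mixture rats were above all single-compound rats but 1, a CTD rat. The departure was 0.95 ± 0.34 (95% interval 0.25 to 1.65, unadjusted p = 0.00937, edgeR adjusted p = 0.336). Abcc3, an export pump for conjugates, departed by 0.47 with an interval from -0.0048 to 0.95, and Aldh1a1, a retinal dehydrogenase, by 0.44 (-0.07 to 0.94), neither past the threshold. Among the genes lower in mixture livers, Megf11 (-0.11), Ky (0.01) and Eln (-0.06) had departures near 0 with SEs of 0.19, 0.305 and 0.28. Cyp7a1, the rate-limiting enzyme of bile acid synthesis, had 0.59 with an interval from -0.40 to 1.57.

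Over the list of 23 CAR and PXR targets, the median log2-fold change was 0.95 for THI, 0.89 for CTD and 0.87 for the mixture against a median sum of 0.69. The median departure was 0.19 with 17 of 23 above 0, none past the threshold and 2 above the sum with an unadjusted p under 0.05, Por and Gstm1 (47% and 5.77% of all genes). Por, the electron donor of the cytochrome P450 enzymes, departed by 0.67 ± 0.21 (edgeR adjusted p = 0.22). For the 18 NRF2 targets the median departure was 0.09 and for the 20 glutathione S-transferases 0.09, with none past the threshold in either.

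Cell division genes were the list farthest above the sum, although no single member passed. Their median log2-fold change was 0.02 for THI, 2.95 for CTD and 1.99 for the mixture, where the median of the sums was 1.44. Of the 36 members, 35 were DEGs of CTD, 32 of the mixture and none of THI. All 36 departures were above 0 (0.04 to 1.11, median 0.52), where 47% of all genes were above 0, and 3 had an unadjusted p under 0.05 (5.77% of all genes were above the sum at that level), Nuf2, Spc24 and Plk1. The members were measured in the same rats and are not independent of each other.

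The sign of this departure depends on the scale on which the doses are added. With the compounds' linear fold changes added in place of log2-fold changes, the median departure of the 36 genes was -0.10 and 13 were above 0. For the 57 departing genes the sign was the same on both scales in all 57, with Rps16 at 0.81 and Scamp3 at 0.74 on the linear scale. The level also varied strongly within groups. Mki67, the proliferation marker, had 45.2, 15.8 and 10.9 CPM in CTD rats and 10.8, 13.6, 15.6 and 4.38 CPM in the mixture, against 1.74 to 5.4 CPM in controls and 1.49 to 5.28 CPM in THI rats. CTD and mixture rats overlapped.

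Promoter windows of 2 members are shown for the CCAAT box and the cell cycle homology region TTTGAA, the letters known from genes switched on late in the cell cycle. Both come from RefSeq on GRCr8, with matches in capitals on either strand, so that CCAAT also appears as ATTGG. The window of Cdk1, the kinase that starts mitosis, lies at chr20:19265043-19265292 on the plus strand, and that of Ccnb1, its cyclin, at chr2:33655226-33655475 on the minus strand. The Cdk1 window holds both motifs, and the Ccnb1 window holds CCAAT but no TTTGAA.
Cdk1: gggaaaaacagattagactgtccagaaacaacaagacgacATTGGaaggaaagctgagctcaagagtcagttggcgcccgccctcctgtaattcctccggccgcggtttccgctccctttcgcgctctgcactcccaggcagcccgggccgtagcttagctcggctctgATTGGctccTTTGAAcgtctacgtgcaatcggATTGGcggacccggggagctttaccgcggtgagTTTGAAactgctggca
Ccnb1: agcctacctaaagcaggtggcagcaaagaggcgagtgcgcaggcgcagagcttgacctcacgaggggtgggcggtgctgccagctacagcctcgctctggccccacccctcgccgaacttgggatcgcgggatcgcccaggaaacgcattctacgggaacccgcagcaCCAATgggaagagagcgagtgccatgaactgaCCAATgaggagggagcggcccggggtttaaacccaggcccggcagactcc
CCAAT was found in 22 of 31 cell division windows (71%) against 34.3% of all windows, and TTTGAA in 13 (41.9%) against 16%. Among the 57 departing genes TTTGAA was found in 2 of 36 windows (5.56%). Cdk1 had 13, 5.09 and 2.77 CPM in CTD rats and 4.36, 3.61, 3.7 and 1.65 CPM in the mixture, and Ccnb1 had 9.23, 3.8 and 2.8 CPM in CTD rats and 3.18, 3.08, 2.51 and 0.861 CPM in the mixture.

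**Figure D4:**
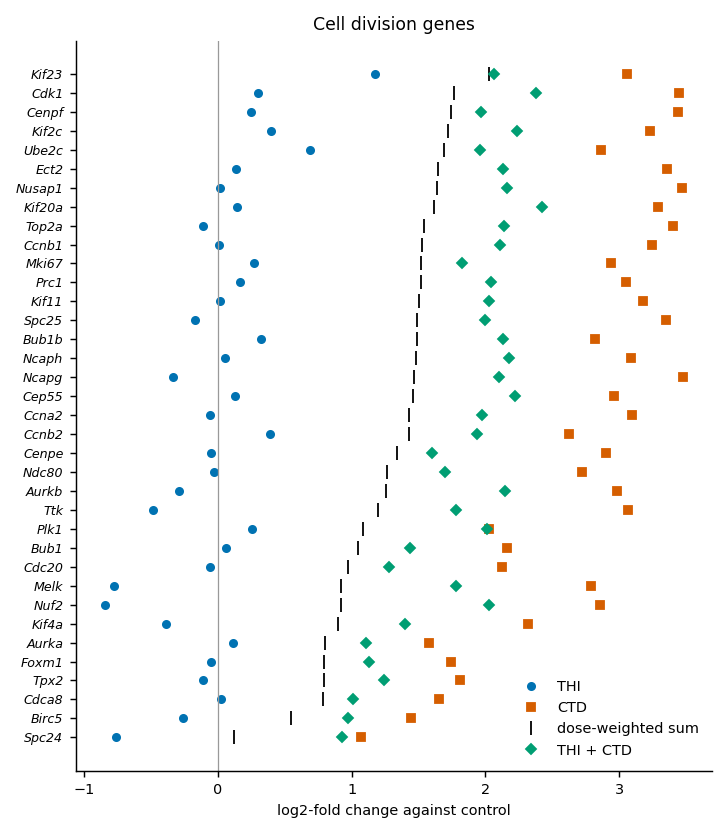
Log2-fold change against control (horizontal axis) of the 36 cell division genes for THI (circles), CTD (squares), THI + CTD (diamonds) and the dose-weighted sum (bars). THI + CTD lies to the right of the sum and between THI and CTD in all 36 rows. With linear addition it lies above the sum in 13 of the 36.

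DNA replication and repair genes lay above the sum as well. The 35 replication genes had a median departure of 0.32, with 31 above 0, none past the threshold and 8 above the sum with an unadjusted p under 0.05, where 47% and 5.77% of all genes were. The nearest was the licensing factor Cdt1 with 1.32 ± 0.35 (edgeR adjusted p = 0.116). The 27 repair genes had a median of 0.23 with 23 above 0. With linear addition these medians were 0.14 and 0.12. The 19 p53 targets had a median of 0.07 with 10 above 0.

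No member of the metabolic lists passed, and their medians lay on both sides of 0. The median departure was 0.27 for 25 genes of lipogenesis and glucose use, 0.19 for 24 genes of cholesterol synthesis, of which 23 were above 0, and 0.16 for 31 PPARA targets. It was -0.03 for 16 genes of gluconeogenesis and fasting and -0.03 for 23 genes of lipoprotein and lipid homeostasis. Of the 31 PPARA targets, 7 lay above the sum and 2 below it at an unadjusted p under 0.05, where 5.77% and 3.89% of all genes did. These members were measured in the same rats and are not independent of each other. Cpt1a, the gate of mitochondrial fatty acid oxidation, had the smallest p of the PPARA list, with 1.08 ± 0.31 and an edgeR adjusted p of 0.165. Clock output genes had a median of 0.24 with 11 of 15 above 0. The 17 pericentral Wnt targets had a median of -0.05, and Axin2, the feedback inhibitor of Wnt signalling, was the member nearest the threshold with 0.71 ± 0.18 (adjusted p = 0.102).

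Among the lists by function, the lowest medians were those of the proteasome and of amino acid breakdown. The 31 proteasome subunits had a median departure of -0.15, with 5 above 0, none past the threshold and 10 with an unadjusted p under 0.05, where 3.89% of all genes were lower at that level. The 23 genes of the urea cycle and amino acid breakdown had a median of -0.14 with 6 above 0, and 20 gene IDs of antigen presentation a median of -0.11. In the other lists the medians lay between -0.09 and 0.05. Over the 33 lists, Rps16 was the 1 member past the threshold. The Wald test of DESeq2 called 10 members in 8 lists, among them 3 ribosomal proteins.

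**Figure D5:**
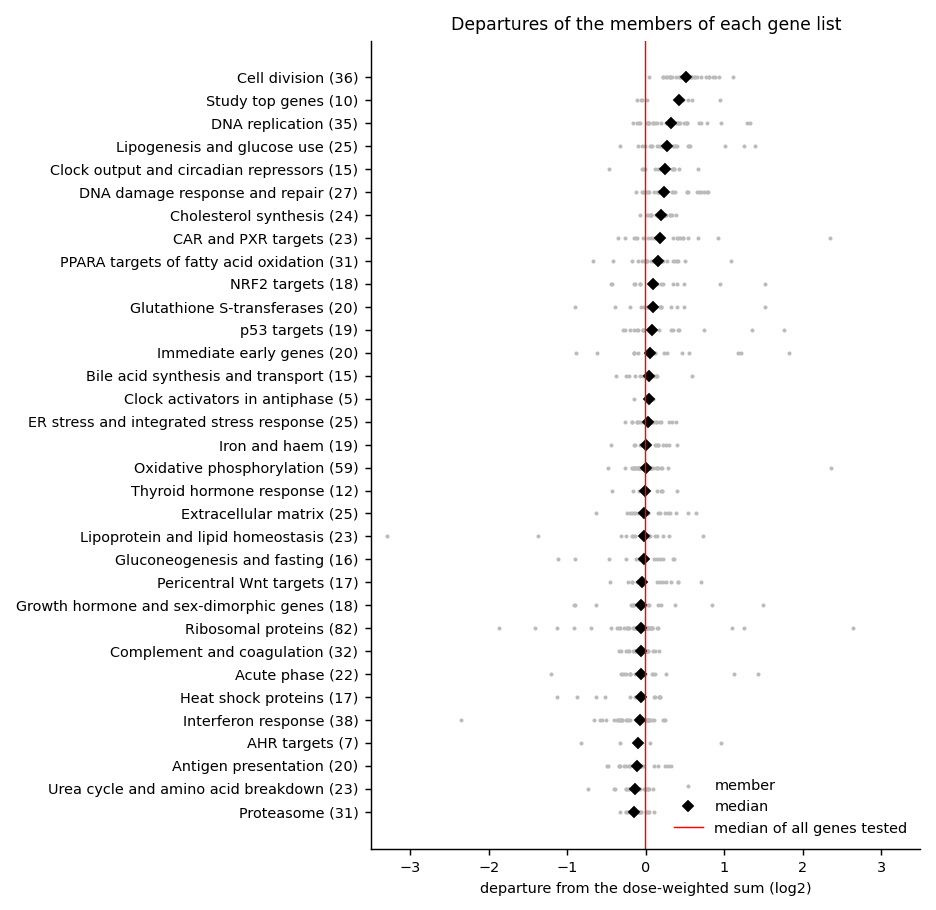
Departure from the dose-weighted sum (log2, horizontal axis) of the members (grey points) and the median (diamonds) of each of the 33 gene lists, with the number of gene IDs tested in brackets and the median of all genes tested as a red line. Cell division has the highest median (0.52) and the proteasome the lowest (-0.15).

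A further contrast set the departure of THI + CTD against that of IMZ + CTD (46 mg/kg IMZ with 135 mg/kg CTD). In this difference the CTD livers cancel and the THI, IMZ and mixture livers remain, while both departures share the CTD rats and controls. It passed for 8 genes (0.0402% of genes), 6 higher (0.0301%) and 2 lower (0.01%) for THI + CTD, and 1835 genes (9.22%) had an unadjusted p under 0.05. Among the 57 departing genes it passed for Paqr7 alone, which departed by 0.72 from the sum of THI and CTD and by -0.66 from that of IMZ and CTD (difference 1.38 ± 0.20, edgeR adjusted p = 0.00304). For the other 56 genes no difference between the mixtures was detected, which does not show that they were alike. Scamp3 departed by 0.96 and 0.81, Rps16 by 1.25 and 1.5, and Hnrnpa2b1 by -0.45 and -0.34, in this order of the mixtures.

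The other 7 genes of this contrast did not themselves pass for THI + CTD. Acot3 and Acot2, thioesterases of fatty acyl-CoA, Pex11a of peroxisome division and the peroxisomal transporter Abcd3, all known PPARA targets or peroxisomal proteins, were higher by 1.13, 1.05, 1.01 and 0.78. Pex11a had 25.3, 19.8, 17.2 and 20 CPM with THI + CTD and 12.1, 7.44, 11.1 and 12.1 CPM with IMZ + CTD, groups that did not overlap. Dbp, a transcription factor of the clock output, was higher by 1.21, with 6.22, 4.48, 5.32 and 4.63 CPM against 2.43, 2.3, 2.76 and 2.86 CPM. The THI + CTD rats lay within the 4.07 to 7.58 CPM of the controls, and the IMZ + CTD rats lay below it. Dbp departed by 0.24 for THI + CTD and by -0.97 for IMZ + CTD. Cdo1, the cysteine dioxygenase, and Stat5b, which carries the growth hormone signal, had differences of -0.71 and -0.44. The count of 8 fell to 1 to 5 without THI replicates 3 or 4, IMZ replicates 1 or 3, THI + CTD replicates 1, 2 or 3 or any of the IMZ + CTD rats, and was 127 by the Wald test of DESeq2.

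Library totals of the 19 rats ran from 31820322 to 101230067 counts with a median of 42277818, and those of the 3 CTD rats from 31820322 to 38435675. Hepatocyte markers summed to 175000 to 263000 CPM over the 4 groups. Red blood cell markers summed to 160 to 196 CPM in CTD rats, 28.4 to 70.5 in controls, 19.8 to 126 in THI rats and 36.1 to 222 in the mixture. Markers of T and NK cells summed to 16.9 to 22.5 CPM in the mixture and 21 to 28.1 in CTD. The sums were 22.4 to 28.8 in THI rats and 23.5 to 33.7 in controls. The median departure was -0.41 over 16 genes, of which only 3 had an average log2 CPM above 0. Markers of Kupffer cells and macrophages had a median of -0.28 with none of 11 above 0. The 10 cholangiocyte markers had a median of 0.35 with 9 above 0, where 47% of all genes were. Only 5 of these 10 had an average log2 CPM above 0. Pancreas markers summed to 194 to 470 CPM in controls and at most 145 CPM in the treated groups. None of these markers passed, their part in the departures was not tested, and in bulk liver fewer cells of a type cannot be told from less RNA per cell.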

How the data were processed

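The authors sequenced liver RNA of single rats with a stranded total RNA kit. Per the submitters' processing notes and the study's methods, reads were trimmed with Skewer, checked with FastQC 0.11.5, and mapped to Rnor_5.0 and counted per gene with STAR 2.5.2b. The strand setting of the counting is not given in the sources used here. The deposited table of raw counts was used, and a second deposited table of normalized values was not.

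Genes were kept from a summed count of 2 upward. After TMM scaling, edgeR 4.0.16 in R 4.3.3 (quasi-likelihood, older method) was run once on all 7 groups of 31 rats, and contrasts were adjusted over 19904 genes by Benjamini-Hochberg at a threshold of 0.05. The biological coefficient of variation was 19.4%. SEs were derived from the contrast and its F value. Separations between rats were read on log2 CPM with a prior count of 2. Fold changes of genes near 0 counts depend on the prior count of the fit. Totals of 31820322 to 101230067 counts per library give the depth.

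Named were the 12 largest departures in each direction past the threshold with a symbol and an average log2 CPM above 0 (11 below the sum), list members past the threshold (at most 4 per list) and the 10 genes that the study singled out. No gene passed against THI and against CTD in the same direction, a further part of the rule. Of the genes under this rule 2 are not reported here, and counts include them. Other genes were named after their values were seen. Members, lists and tests were chosen with earlier results of these data known. Lists were described by counts and medians and not tested as sets. Promoter windows of 250 bases were searched for 12 motifs, of which 5 are reported.

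Alternatives were the size factors and Wald test of DESeq2 1.42.0, the newer quasi-likelihood method, other filters, the 4 groups alone, other weights, linear addition, a replicate block, thinning to the smallest library and leaving out each rat. The fit was tested on simulated data, where 40 of 100 departures of size 0.5 and 96 of 100 of size 1 were called, with 3 false calls. Departures of 0.5 were thus often missed there. The simulated spread followed the trend over expression level and did not vary between genes of the same level. Departures were given only to genes with an average log2 CPM above 0, so recovery in the real data can differ. No 2 libraries of a group were copies (smallest chi-square per degree of freedom 30.6).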

Additional observations from a re-analysis of the deposited data

Results flagged for a closer look

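In 8 genes the departure differed between THI + CTD and IMZ + CTD by a test of the difference itself (edgeR, 19904 genes). The log2 differences were 1.38 for Paqr7, 1.13 for Acot3, -0.711 for Cdo1, 1.21 for Dbp, 0.781 for Abcd3, -0.443 for Stat5b, 1.01 for Pex11a and 1.05 for Acot2. Over leaving out 1 rat the number of such genes ranged from 1 to 12.

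In 5 of 99 combinations of a named gene and a group (33 genes in the control, THI and THI + CTD groups) 1 rat stood apart from the rest of its group by Dixon's ratio of gap to range. Chance gives about 1 in 20. Elp5 was high in THI + CTD replicate 4 (ratio 0.939), and Hnrnpa2b1 was high in THI + CTD replicate 1 (0.926). Slc10a7 was low in control replicate 7 (0.691) and Abcc3 high in control replicate 4 (0.647). Aldh1a1 was low in THI replicate 2 (0.893). The departures of Elp5, Hnrnpa2b1 and Slc10a7 passed the threshold without any 1 rat, and those of Abcc3 and Aldh1a1 did not pass in any fit.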

How the results depend on the processing

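The 57 departing genes became 55 with DESeq2 size factors, 59 with the newer quasi-likelihood method, 65 with filterByExpr, 50 with no filter, 45 in a fit of the 4 groups alone, 58 with the exact dose ratios, 66 with weights of 0.5 and 0.5, 54 after thinning and 172 with the DESeq2 Wald test. Leaving out 1 rat gave 30 to 75 genes, the lowest without THI + CTD replicate 1. Of the 23 named genes that passed, 13 passed with any 1 rat left out, and no departure of the 23 changed sign in any fit. Adam23 (11 of 19 fits), Rtf1 (8), MT-ATP8 (7), Paqr7 (6) and Rock1 (6) were lost most often. Under the other settings Rtf1 missed the threshold in 4 of 10, Rock1 in 3, Adam23 in 2 and Capzb, MT-ATP8 and Paqr7 in 1 each. With linear addition the median of the cell division genes was -0.10. Genes of the study's list near 0 changed sign. Ky was -0.0015 with the exact dose ratios, -0.0022 with the replicate block and -0.018 after thinning, with -0.25 to 0.17 over leaving out 1 rat. Eln was -0.18 to 0.079 without 1 rat. By the DESeq2 Wald test the counts were 202 for THI, 1386 for THI + CTD, 158 for THI + CTD against THI, 936 for THI + CTD against CTD and 127 for the difference from IMZ + CTD. Leaving out 1 rat gave 67 to 120 genes for THI (108 with all rats; 67 and 68 without THI replicates 1 and 2), 1468 to 2554 for CTD (2518; 1468 without CTD replicate 1), 450 to 969 for THI + CTD (873; 577 and 450 without its replicates 2 and 3), 0 to 75 for THI + CTD against THI (21), 315 to 585 for THI + CTD against CTD (531; 315 without CTD replicate 1) and 1 to 12 for the difference (8). The 0 came without THI replicate 3 by edgeR, with 1422 genes at an unadjusted p under 0.05. The labels do not say whether the replicate numbers pair the rats. Over 21 same-numbered pairs the correlation of deviations ran from -0.28 to 0.238 (median 0.0374), with 5 pairs over 0.1. The median over 63 different-numbered pairs was -0.0105. These correlations were not tested and do not exclude an effect shared by rats of the same number. With the replicate block 47 genes departed, 43 of them among the 57, with Paqr7 (adjusted p 0.0506), MT-ATP8, Capzb, Rock1 and Rtf1 not among them, and the counts were 45 for THI, 1571 for CTD, 348 for THI + CTD, 2 for THI + CTD against THI, 438 for THI + CTD against CTD and 9 for the difference. The causes of these shifts were not tested.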
